A study of Homo sapiens with 15 samples.

Results

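The genes described here are MOAP1, RASSF1 and the members of the route by which their proteins activate BAX. They are 9 genes of the 19483 with a symbol on the array (MOAP1, RASSF1, TNFRSF1A, TNFRSF10B, BAX, BAK1, BID, BCL2L1 and TRIM39), chosen by name for their place in the route. The array reads them with 12 probes, and BAX, BID and TRIM39 have 2 probes each. RNA came from 15 tumors grown under the skin of athymic nude mice from HCT116, a human colon cancer line that has its own MOAP-1 and RASSF1A, and was hybridized tumor by tumor to one-color Agilent whole-genome arrays. Before injection the cells had received empty vector, Myc-tagged MOAP-1, MOAP-1 with the lysine-to-arginine change K264R or K278R, or RASSF1A, and 3 tumors of each construct were measured. Transfection was transient, so a construct stands for a treated pool of cells and not for a clone, and the tumors were taken weeks later. The labels do not say whether the 3 tumors of a construct came from separate transfections, so the p-values measure the spread between these tumors only.

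MOAP-1 carries a BH3-like motif and is normally short-lived because it is marked for the proteasome. When a death receptor such as TNF-R1 is engaged, RASSF1A releases MOAP-1 from an inhibited state and MOAP-1 binds BAX, which then changes shape and, like its relative BAK, permeabilizes the outer mitochondrial membrane. Bcl-xL, the product of BCL2L1, holds both pore formers in check, BID carries the receptor signal to the mitochondrion after cleavage by caspase-8, and the ubiquitin ligase TRIM39 keeps MOAP-1 from being degraded. Most of this control acts on proteins, whereas the arrays measured RNA.

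In brief, some of these probes split the tumors into 2 sets. MOAP1, BAK1, BCL2L1 and 1 of the BAX probes were brighter in every MOAP-1, K264R and K278R tumor than in every vector tumor. They were also brighter there than in every tumor labeled RASSF1A. The share of all probes that split the tumors in this way was not counted. A moderated F test over the 5 constructs called 43.4% of all probes tested. The receptor genes TNFRSF1A and TNFRSF10B, RASSF1 itself, BID, the other BAX probe and 1 TRIM39 probe were not called in any comparison. TRIM39 by its other probe was lower in K264R tumors than in vector tumors. Most probes of the array were not called either: at most 21.2% of all probes were called in any comparison of 2 constructs. A probe was called when its Benjamini-Hochberg adjusted p from limma, over all 30585 probes tested, was below 0.05 and, between 2 constructs, its difference reached 1.5-fold.

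The promoters of MOAP1, BAX, BAK1 and BCL2L1 are shown because a reader may want to compare what lies in front of them. Each of these genes had a probe that read higher in the same tumors, for BAX only A_23_P208706. BCL2L1 stayed under 1.5-fold against vector and was not called there. Each line gives the 250 bases before the annotated start in RefSeq (assembly GRCh38.p14), read along the gene's strand. BCL2L1 has 2 annotated starts in the table, and the window printed is that of the start farther upstream. The MOAP1 window is chr14:93184898-93185147 (minus strand), the BAX window chr19:48954625-48954874 (plus strand), the BAK1 window chr6:33580277-33580526 (minus strand) and the BCL2L1 window chr20:31723964-31724213 (minus strand). Capitals mark the E-box CACGTG, the cAMP response element TGACGTCA, the CCAAT box CCAAT and the TATA box TATAAA, each searched on both strands.
MOAP1: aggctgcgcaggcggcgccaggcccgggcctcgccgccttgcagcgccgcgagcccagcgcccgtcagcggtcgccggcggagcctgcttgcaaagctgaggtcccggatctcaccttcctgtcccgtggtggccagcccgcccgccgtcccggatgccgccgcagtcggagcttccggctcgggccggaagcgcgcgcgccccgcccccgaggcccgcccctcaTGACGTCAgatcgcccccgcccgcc
BAX: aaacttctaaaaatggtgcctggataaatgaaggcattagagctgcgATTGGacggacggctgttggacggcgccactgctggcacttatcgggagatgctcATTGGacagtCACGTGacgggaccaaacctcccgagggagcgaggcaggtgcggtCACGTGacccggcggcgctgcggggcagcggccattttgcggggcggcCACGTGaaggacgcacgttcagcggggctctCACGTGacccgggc
BAK1: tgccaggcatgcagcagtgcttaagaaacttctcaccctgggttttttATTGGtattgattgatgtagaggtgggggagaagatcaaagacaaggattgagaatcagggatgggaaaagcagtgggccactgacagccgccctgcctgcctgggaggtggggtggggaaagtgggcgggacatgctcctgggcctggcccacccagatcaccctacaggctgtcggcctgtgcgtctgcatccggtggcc
BCL2L1: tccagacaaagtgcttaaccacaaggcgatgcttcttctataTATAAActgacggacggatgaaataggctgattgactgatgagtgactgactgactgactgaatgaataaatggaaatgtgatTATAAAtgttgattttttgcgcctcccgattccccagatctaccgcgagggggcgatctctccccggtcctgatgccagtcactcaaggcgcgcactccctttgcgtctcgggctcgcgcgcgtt

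The MOAP1 window held 1 cAMP response element, a motif found in 1.65% of the 35116 promoter windows of this length in the table. The BAX window held 4 E-boxes and 2 CCAAT boxes, and 6.34% of all windows held at least 1 E-box. The BAK1 window held 1 CCAAT box, which 32% of windows had, and the BCL2L1 window held 2 TATA boxes, which 10.7% had. The window of the other BCL2L1 start (chr20:31722869-31723118) held none of the capitalized motifs, and G and C made up 60.4% of it. No capitalized motif was shared by all 4 windows. The GC box GGGCGG, left in lower case, occurred 4 times for MOAP1, 2 times for BAK1, once for BAX and not for BCL2L1, against 42.6% of windows with at least 1. G and C made up 78.4% of the MOAP1 window, 62.8% for BAX, 58% for BAK1 and 50% for BCL2L1. These matches describe the letters of the windows only, and no binding was measured.

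Values below are log2 signals relative to the 75th percentile of each array, given in the order of tumors 1, 2 and 3. They rank tumors for 1 probe and do not compare 1 probe with another. All 12 probes were well above background on all 15 arrays, by the scanner software's own test.

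**Figure D1:**
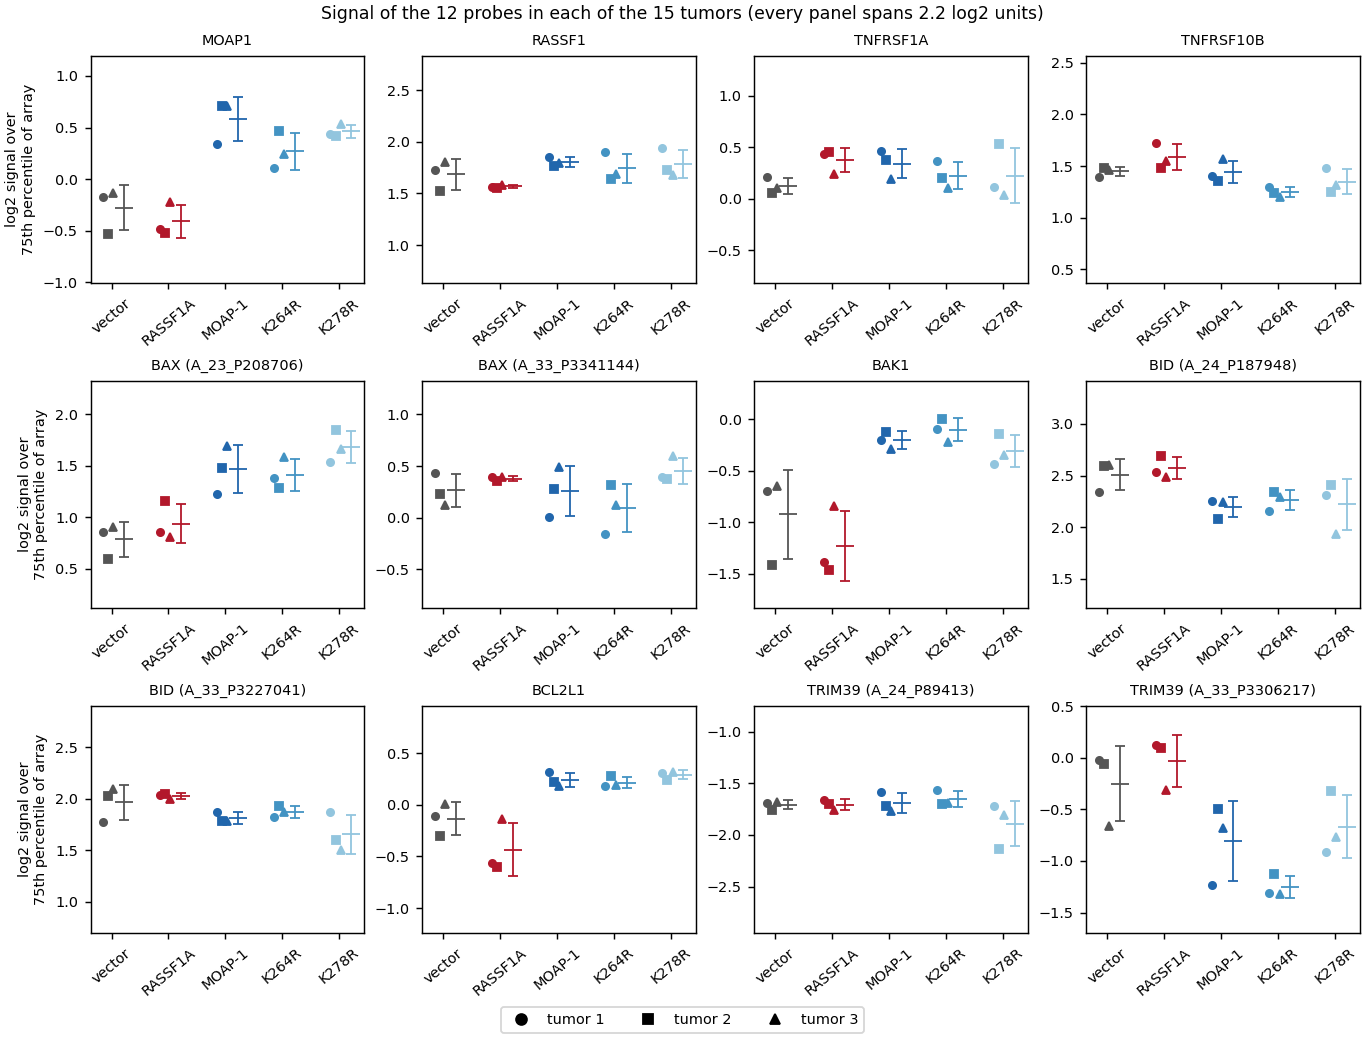
Each panel is 1 of the 12 probes, with the log2 signal over the array's 75th percentile on the vertical axis and the 5 constructs on the horizontal axis. Symbols are single tumors and bars are the mean ± SD of 3, and the MOAP1, BAK1, BCL2L1 and first BAX panels show all 9 MOAP-1, K264R and K278R tumors above all 6 vector and RASSF1A tumors.

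MOAP1 (chr14:93182199-93184897, GRCh38.p14, probe A_23_P205389) encodes the protein introduced in wild-type or altered form by 3 of the constructs. Its log2 signal was -0.18, -0.53 and -0.13 in the vector tumors and 0.34, 0.71 and 0.71 in the MOAP-1 tumors. It was 0.11, 0.46 and 0.25 with K264R, 0.44, 0.42 and 0.53 with K278R, and -0.48, -0.52 and -0.23 in the tumors labeled RASSF1A. All 9 tumors given a form of MOAP-1 were above all 6 others, while vector and RASSF1A tumors overlapped. The mean of the MOAP-1 tumors was 0.86 above vector on the log2 scale (SE 0.14, 1.82-fold, adjusted p = 0.000842), and 9.21% of all probes differed at least as far in that comparison. K278R was 0.74 above vector (SE 0.14, 1.67-fold, adjusted p = 0.00504). K264R was 0.55 above vector (SE 0.14, 1.47-fold, adjusted p = 0.00939), which passed the p threshold and stayed just under the fold threshold. The order of the means was MOAP-1, K278R, K264R, vector and RASSF1A, and of the neighbors in it only K264R and vector were separated without overlap. The files do not say which part of the transcript the probe reads, nor whether it reads the introduced sequence, so signal from the construct and from the cells' own gene cannot be told apart. In whole tumors fewer cells that express a gene and less RNA per cell cannot be told apart either, here and for every gene below.

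By this probe neither altered form was called against MOAP-1. The MOAP-1 mean was 0.31 above K264R (95% interval 0.01 to 0.62, adjusted p = 0.454) and 0.12 above K278R (95% interval -0.18 to 0.43, adjusted p = 0.835). These intervals bound the differences and do not show the tumors to be alike. Against the RASSF1A-labeled tumors the MOAP-1 mean was 0.99 higher (SE 0.14, 1.99-fold, adjusted p = 0.000191).

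RASSF1 (chr3:50329788-50340836, probe A_23_P41066) encodes a scaffold protein of several isoforms, of which RASSF1A is the tumor suppressor that binds MOAP-1. Its log2 signal was 1.72, 1.52 and 1.81 in the vector tumors and 1.56, 1.55 and 1.59 in those labeled RASSF1A. The tumors labeled RASSF1A were therefore not brighter than vector for the gene they were named after, and lay at the low end of the 15 tumors. Their mean was -0.12 from vector (95% interval -0.34 to 0.11, adjusted p = 0.671). The signal was 1.85, 1.76 and 1.79 with MOAP-1, 1.64 to 1.90 with K264R and 1.68 to 1.94 with K278R. The RASSF1 probe was not called over the 5 constructs (moderated F test, adjusted p = 0.291), and 77.3% of all probes had a larger F. Which isoform the probe reads, and whether it reads the introduced RNA, is not given in the sources used here, so this probe does not check the label, and the group is named by its label throughout. The only RASSF1 start in the promoter table used here lies inside the gene.

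Counted together, 5 of the 12 probes differed over the 5 constructs by the F test (MOAP1, BAK1, BCL2L1, 1 BAX and 1 TRIM39 probe), where 43.4% of all probes tested did. Against vector, 3 of the 12 were called for MOAP-1 (all higher; 16.6% of all probes), 3 for K264R (2 higher and 1 lower; 19.5% of all) and 3 for K278R (all higher; 10.9% of all). These comparisons share the 3 vector tumors. For MOAP-1 against RASSF1A, 4 of the 12 were called (3 higher and 1 lower), beside 21.2% of all probes. At these backgrounds the counts do not set the 12 probes apart from the array as a whole. Their median difference from vector was 0.07 for MOAP-1 tumors, where the median of all probes was 0.02.

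The other comparisons gave no called probe among the 12 by limma. For RASSF1A against vector 0% of all probes were called, and 1 of the 12 (BCL2L1) had an unadjusted p below 0.05, as did 1 by the methods' t-test. For MOAP-1 against K264R 0.00327% were called, which is 1 probe, and 1 of the 12 (MOAP1) had an unadjusted p below 0.05, as did 1 by the methods' t-test. For MOAP-1 against K278R 0% were called, and none of the 12 had an unadjusted p below 0.05 by either test.

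**Figure D2:**
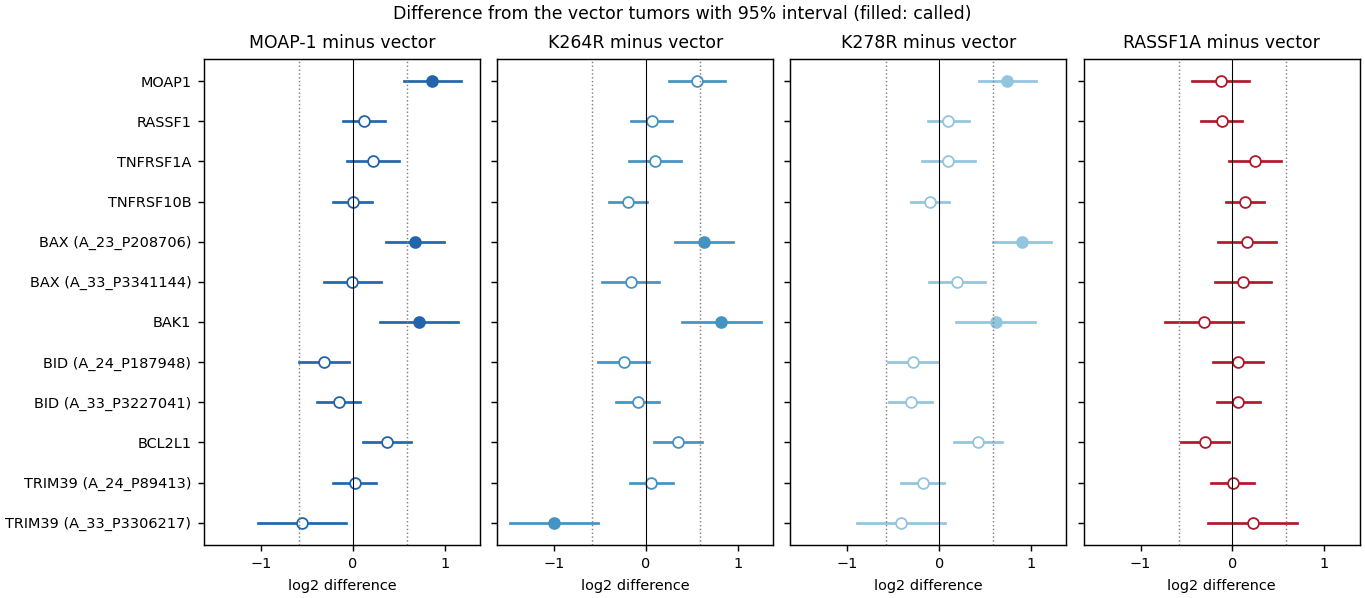
Points are log2 differences of the mean of 3 tumors from the mean of the 3 vector tumors, lines are 95% intervals, filled points were called and dotted lines mark 1.5-fold. MOAP1, BAK1 and the first BAX probe lie to the right of 0 in the MOAP-1, K264R and K278R panels. No point is filled in the RASSF1A panel, and 0% of all probes were called for RASSF1A against vector.

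BAX (chr19:48954875-48961798) encodes the pore former that MOAP-1 binds. Probe A_23_P208706 read 0.86, 0.60 and 0.90 in the vector tumors, 1.23, 1.48 and 1.69 with MOAP-1, and 1.38, 1.28 and 1.58 with K264R. It read 1.53, 1.85 and 1.67 with K278R and 0.85, 1.15 and 0.81 in the tumors labeled RASSF1A. Every tumor given a form of MOAP-1 was again above the other 6. The mean was higher than vector by 0.68 with MOAP-1 (SE 0.15, 1.60-fold, adjusted p = 0.00411), by 0.63 with K264R (SE 0.15, 1.55-fold, adjusted p = 0.00519) and by 0.90 with K278R (SE 0.15, 1.86-fold, adjusted p = 0.00277). RASSF1A was 0.15 above vector (95% interval -0.16 to 0.47, adjusted p = 0.689). The 0.53 between MOAP-1 and RASSF1A passed the p threshold (SE 0.15, 1.44-fold, adjusted p = 0.0126) but not the fold threshold.

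The other BAX probe, A_33_P3341144, did not show this difference. It read 0.44, 0.23 and 0.12 in the vector tumors and 0.01, 0.28 and 0.49 in the MOAP-1 tumors, which overlapped. MOAP-1 tumors differed from vector by -0.01 on the log2 scale (95% interval -0.31 to 0.30, adjusted p = 0.98). That interval does not reach the 0.68 of the first probe. The upper end of the interval was 0.14 for K264R and 0.50 for K278R. Over the 15 tumors Pearson's r between the 2 BAX probes was 0.13, as a description. The files do not give the transcripts the 2 probes match, so the rise of BAX holds for 1 of its 2 probes.

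BAK1 (chr6:33572552-33580276, probe A_23_P145357) encodes the other pore former. Its log2 signal was -0.70, -1.42 and -0.65 with vector and -1.38, -1.47 and -0.84 in the tumors labeled RASSF1A. It was -0.20, -0.12 and -0.29 with MOAP-1, -0.09, 0.0030 and -0.22 with K264R, and -0.44, -0.14 and -0.35 with K278R. The 2 sets of tumors did not overlap, and vector tumor 2 lay with RASSF1A tumors 1 and 2 at the low end. BAK1 was 0.72 above vector with MOAP-1 (SE 0.20, 1.65-fold, adjusted p = 0.0157), 0.82 with K264R (SE 0.20, 1.76-fold, adjusted p = 0.0065) and 0.61 with K278R (SE 0.20, 1.53-fold, adjusted p = 0.0437). MOAP-1 was 1.03 above RASSF1A (SE 0.20, 2.04-fold, adjusted p = 0.0014), and 9.06% of all probes differed at least as far. Without vector tumor 2 the BAK1 difference fell to 0.47 for MOAP-1 (adjusted p = 0.0669), 0.57 for K264R (adjusted p = 0.0257, under 1.5-fold) and 0.37 for K278R (adjusted p = 0.181), so no BAK1 call against vector outlived the loss of that tumor. The first BAX probe lost its calls for MOAP-1 (0.58) and K264R (0.53) in the same way, by the fold threshold. Other single tumors mattered too. BAK1 was no longer called for MOAP-1 without MOAP-1 tumor 2 (0.68, adjusted p = 0.0534), nor for K278R without K278R tumor 1, 2 or 3 (0.53 to 0.68, adjusted p from 0.0588 to 0.108). The first BAX probe fell under 1.5-fold without MOAP-1 tumor 3 (0.57) and without K264R tumor 3 (0.54).

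BCL2L1 (chr20:31664452-31723963, probe A_23_P210886) encodes Bcl-xL, the guardian that binds BAX and BAK. Its log2 signal was -0.11, -0.30 and 0.01 in the vector tumors and 0.31, 0.22 and 0.18 in the MOAP-1 tumors. It lay between 0.18 and 0.27 with K264R, between 0.24 and 0.32 with K278R, and at -0.56, -0.61 and -0.14 in the tumors labeled RASSF1A. The guardian thus read higher in the same 9 tumors as BAK1 and the first BAX probe, with no overlap with the other 6. The differences from vector were small: 0.37 for MOAP-1 (SE 0.12, 1.30-fold, adjusted p = 0.034), 0.35 for K264R (adjusted p = 0.0407) and 0.42 for K278R (adjusted p = 0.028), all under 1.5-fold and so not called. MOAP-1 was 0.67 above RASSF1A (SE 0.12, 1.60-fold, adjusted p = 0.000912), which was called. RASSF1A tumors were -0.30 from vector (95% interval -0.56 to -0.04, unadjusted p = 0.0275, adjusted p = 0.371).

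RASSF1A tumors 1 and 2 were hybridized on a slide of their own and scanned on another day, and tumor 3 shared the slide of the vector tumors. Tumor 3 was nearer to vector than the other 2 for MOAP1, BAK1 and BCL2L1. With the scan day as a block, which leaves RASSF1A tumor 3 to carry the comparison, MOAP-1 stayed above RASSF1A by 0.81 for MOAP1, and this was called. The BAK1 difference became 0.64 (adjusted p = 0.108) and the BCL2L1 difference 0.38 (adjusted p = 0.0813).

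TNFRSF1A (chr12:6328771-6342076, probe A_23_P139722) encodes TNF-R1, the receptor at which MOAP-1 and RASSF1A are recruited. Its signal was 0.21, 0.06 and 0.11 with vector, 0.46, 0.37 and 0.19 with MOAP-1, and 0.43, 0.46 and 0.24 in the tumors labeled RASSF1A. MOAP-1 and vector tumors overlapped, and the difference of 0.22 was not called (95% interval -0.07 to 0.50, adjusted p = 0.228). RASSF1A tumors lay above vector without overlap, by 0.25 (95% interval -0.04 to 0.53, adjusted p = 0.462). K264R and K278R tumors were each 0.10 above vector, and the K278R tumors spread from 0.04 to 0.53.

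TNFRSF10B (probe A_24_P218265) encodes a receptor for the death ligand TRAIL. It ranged only from 1.20 to 1.73 over the 15 tumors. K264R tumors read 1.30, 1.24 and 1.20 and lay below the vector tumors at 1.40, 1.48 and 1.47. The difference was -0.20 (95% interval -0.41 to 0.01, adjusted p = 0.126), which did not pass. The MOAP-1 tumors differed from vector by less than 0.01 on the log2 scale (95% interval -0.21 to 0.20).

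BID (chr22:17734138-17774665) encodes the BH3-only protein that caspase-8 cleaves. Both of its probes read lower in MOAP-1 tumors than in RASSF1A tumors without overlap. Probe A_24_P187948 read 2.25, 2.08 and 2.24 with MOAP-1, 2.34, 2.59 and 2.60 with vector and 2.54, 2.69 and 2.49 with RASSF1A. MOAP-1 was -0.32 from vector (SE 0.13, adjusted p = 0.0736) and -0.38 from RASSF1A (SE 0.13, adjusted p = 0.0313), the latter under 1.5-fold. Probe A_33_P3227041 read 1.87, 1.78 and 1.78 with MOAP-1 and 1.78, 2.02 and 2.10 with vector, a difference of -0.15 (adjusted p = 0.305). The K278R tumors were lowest by this probe, -0.31 from vector (SE 0.11, adjusted p = 0.0593). BID was not called in any comparison, and its 2 probes moved together over the 15 tumors (Pearson's r 0.79, as a description).

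TRIM39 (chr6:30326469-30343729) encodes the ligase that prolongs the life of MOAP-1 protein. Probe A_33_P3306217 read -0.02, -0.06 and -0.67 with vector, 0.13, 0.10 and -0.32 with RASSF1A, and -1.31, -1.13 and -1.33 with K264R. It read -1.24, -0.50 and -0.68 with MOAP-1 and -0.91, -0.32 and -0.77 with K278R. The K264R tumors were below all vector and RASSF1A tumors, and the MOAP-1 and K278R tumors overlapped vector through vector tumor 3. K264R was -1.002 from vector (SE 0.22, 2.003-fold, adjusted p = 0.00406), and 7.48% of all probes differed at least as far. MOAP-1 was -0.56 from vector (SE 0.22, adjusted p = 0.0742) and K278R -0.42 (adjusted p = 0.193). MOAP-1 was -0.78 from RASSF1A (SE 0.22, 1.71-fold, adjusted p = 0.0151), a call lost without MOAP-1 tumor 1 (-0.56, adjusted p = 0.0689), RASSF1A tumor 1 (-0.70, adjusted p = 0.0577) or RASSF1A tumor 2 (-0.71, adjusted p = 0.055), and with the scan day as a block (-0.49, adjusted p = 0.325). Between MOAP-1 and K264R the difference of 0.45 was not called (95% interval -0.04 to 0.93, adjusted p = 0.481).

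The other TRIM39 probe, A_24_P89413, varied less by construct. It read between -1.76 and -1.68 with vector, -1.77 and -1.59 with MOAP-1, and -1.70 and -1.56 with K264R. The K278R tumors read -1.72, -2.14 and -1.81, a mean difference of -0.18 from vector (95% interval -0.41 to 0.05, adjusted p = 0.243). K264R differed from vector by 0.06 (95% interval -0.17 to 0.29, adjusted p = 0.709), an interval that does not reach the -1.002 of the first probe. Pearson's r between the 2 TRIM39 probes was -0.31 over the 15 tumors, as a description. As for BAX, the 2 probes disagree, and the transcripts they match are not given in the sources used here.

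**Figure D3:**
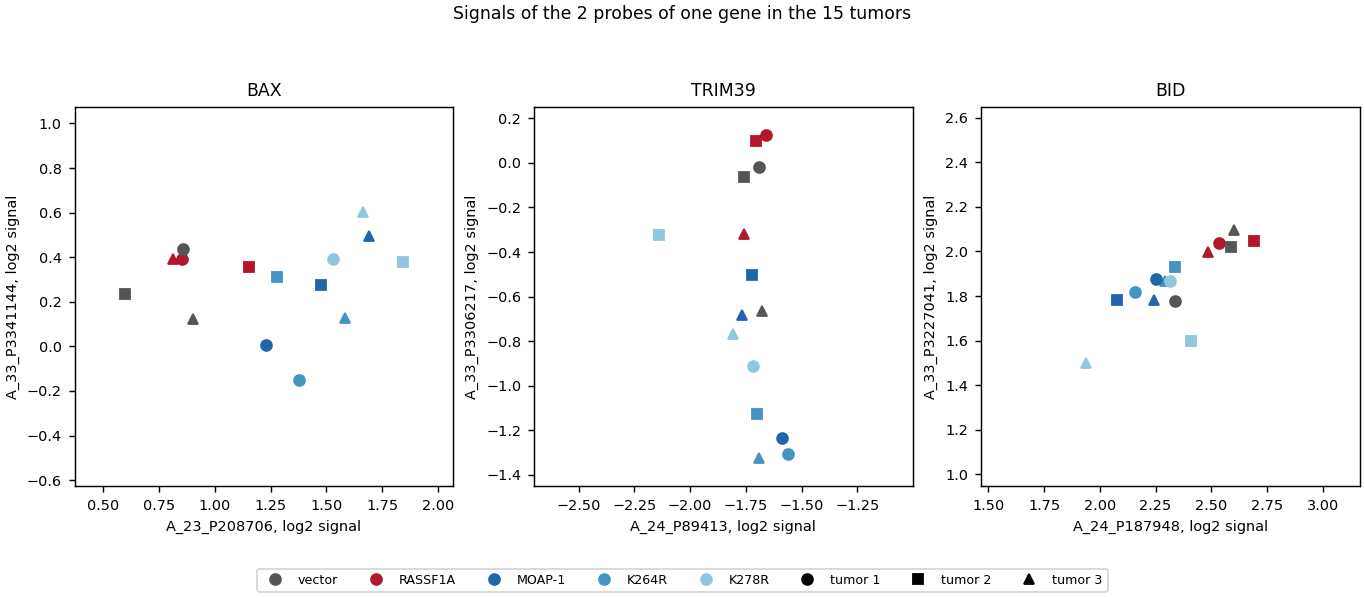
Each point is 1 tumor, with the log2 signal of one probe of a gene on the horizontal axis and of its other probe on the vertical axis. The BID probes rise together (r 0.79), while the points show no such line for BAX (r 0.13) or TRIM39 (r -0.31).

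Some features of the tumors and arrays moved with the constructs, and their part in these results was not tested. The mean log2 signal of 9 probes of 8 fibroblast genes lay between -5.14 and -3.12 in vector, -3.35 and -2.54 in RASSF1A, -3.84 and -1.04 in MOAP-1, -4.00 and -2.33 in K264R and -2.76 and -1.40 in K278R tumors, with 6 to 8 of the 9 above background. The stroma of a xenograft comes from the mouse host, and whether these human probes read mouse RNA was not tested. All 11 epithelial probes (EPCAM, CDH1 and keratins among them) were above background on all arrays, and the labels name a colon cancer line. Their mean was 0.93 and 0.91 in RASSF1A tumors 1 and 2 and between 1.18 and 1.34 in the other 13 tumors. The 11 probes did not move together. Between MOAP-1 and RASSF1A tumors, 5 of the 11 were higher with MOAP-1, the median difference was -0.06 and the range -0.555 to 1.91. The part of these differences in the MOAP-1 against RASSF1A results was not tested. The 75th percentile of the signal ran from 496 to 1402 over the arrays, and it was higher on every K264R array (1176 to 1402) than on every vector array (631 to 768). No slide held vector tumors beside MOAP-1, K264R or K278R tumors, so slide and construct cannot be told apart in the comparisons with vector.

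Around the 9 genes, 62 further genes of the route were followed in 5 lists, and all had probes that could be tested. Each value given for a gene below is that of 1 probe, mostly picked for a small F test p. Other probes of the same gene, where the array has them, are not all given and can read otherwise. On the death receptor side, 3 of 24 probes (15 genes) were called against vector in MOAP-1, K264R and K278R tumors alike, all higher, and none in RASSF1A tumors. Of all probes, 16.6%, 19.5% and 10.9% were called in those 3 comparisons, and 0% for RASSF1A against vector. CASP8, the protease that cleaves BID, was 0.96 above vector with MOAP-1 (SE 0.21, adjusted p = 0.00503), 0.96 with K264R and 0.70 with K278R. CFLAR, which encodes the caspase-8 inhibitor FLIP, was 1.31 above vector with MOAP-1 by probe A_24_P120115 (adjusted p = 0.00907), a probe that was above background in only 2 of 3 RASSF1A tumors. Its other probe of the 4 named, A_23_P209394, was 0.57 above vector with MOAP-1 (adjusted p = 0.0029), under 1.5-fold. FADD, the adaptor of the receptor complex, was -0.43 from vector with MOAP-1 (adjusted p = 0.00717), also under 1.5-fold. The median difference of the list was -0.07, and 9 of the 24 probes were above 0.

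Among the BCL2 guardians and BH3-only genes, 4 of 16 probes (12 genes) were called for MOAP-1 against vector, 2 higher and 2 lower, beside 16.6% of all probes. K264R gave 2 higher and 2 lower (19.5% of all), K278R 3 higher and 1 lower (10.9% of all), and RASSF1A none (0% of all). MCL1, a guardian of BAK, was 1.66 above vector with MOAP-1 (SE 0.28, adjusted p = 0.00104), 1.65 with K264R and 1.19 with K278R. BCL2, the founding guardian, was 0.73, 0.62 and 0.60 above vector in the same tumors, all called. BMF, a BH3-only gene, was 0.70 above vector with K278R (adjusted p = 0.00519) and 0.58 with MOAP-1, just under 1.5-fold. BBC3, which encodes PUMA, was -0.65 between MOAP-1 and RASSF1A (adjusted p = 0.000949) and not called against vector. The 2 lower calls with MOAP-1 were HRK, a BH3-only gene (-0.78, adjusted p = 0.0028), and BOK, a relative of BAX (-0.70, adjusted p = 0.00944), 2 genes chosen with their values in view. Over the whole list with MOAP-1, 5 of the 16 probes were above 0 and the median difference was -0.14, where that of all probes was 0.02.

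Of the genes that act after BAX, 4 of 16 probes (10 genes) were called for MOAP-1 against vector, 3 higher and 1 lower, beside 16.6% of all probes. K264R gave 4 higher and 1 lower (19.5% of all), K278R 2 higher (10.9% of all), and RASSF1A none (0% of all). The lower call with MOAP-1 and with K264R was XIAP, a caspase inhibitor chosen with its values in view (-0.60 with MOAP-1, adjusted p = 0.0445). VDAC1, a channel of the outer mitochondrial membrane, was 1.87 above vector with MOAP-1 (SE 0.23, adjusted p = 0.000235), 1.79 with K264R and 1.35 with K278R. APAF1, the scaffold of the apoptosome, was 1.04 and 1.02 above vector with MOAP-1 and K264R, both called, and 0.58 above with K278R, under 1.5-fold. HTRA2, a protease released from mitochondria, was 0.66, 0.77 and 0.59 above vector, all called. CYCS, which encodes cytochrome c, was 0.07 above vector with MOAP-1 by the probe named (A_24_P376556, adjusted p = 0.694) and 0.58 above vector with K264R (adjusted p = 0.00387, under 1.5-fold). Another CYCS probe, A_33_P3313401, was called for K264R (0.70, adjusted p = 0.00291).

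Genes for the turnover of MOAP-1 were mainly subunits and activators of the anaphase-promoting complex. Of their 20 probes (15 genes), 3 were called for MOAP-1, 5 for K264R and 4 for K278R, all higher than vector, and none for RASSF1A. The shares of all probes called were 16.6%, 19.5%, 10.9% and 0% in that order. ANAPC1 was higher with MOAP-1 by both probes named, by 1.104 (A_33_P3262138, adjusted p = 0.000159) and 0.75 (A_32_P12104, adjusted p = 0.000367, above background in 2 of 3 vector tumors). ANAPC7, another subunit, was 0.91 above vector with MOAP-1, 1.14 with K264R and 0.89 with K278R. CDC20, an activator of the complex, was 0.60 above vector with K264R (adjusted p = 0.0154) and 0.59 with K278R (adjusted p = 0.0288), both called, and 0.54 with MOAP-1, under 1.5-fold. The median of the list was 0.13 for MOAP-1 and 0.25 for K264R.

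Partners of RASSF1A gave 4 of 12 probes (10 genes) called for MOAP-1 against vector and 4 for K264R, each 3 higher and 1 lower, and 3 for K278R, 2 higher and 1 lower, beside 16.6%, 19.5% and 10.9% of all probes. STK4, the kinase MST1, was 1.55 above vector with MOAP-1 (SE 0.21, adjusted p = 0.000299), 1.21 with K264R and 1.07 with K278R. The mitotic kinase gene AURKB was 1.16, 1.28 and 0.94 above vector, and AURKA 0.70 and 0.9996 above with MOAP-1 and K264R. MAP1S, whose product ties RASSF1A to microtubules, was lower, by -1.20 with MOAP-1 (SE 0.17, adjusted p = 0.000369), -1.33 with K264R and -0.997 with K278R. In the tumors labeled RASSF1A none of the partners was called against vector, where 0% of all probes were called.

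**Figure D4:**
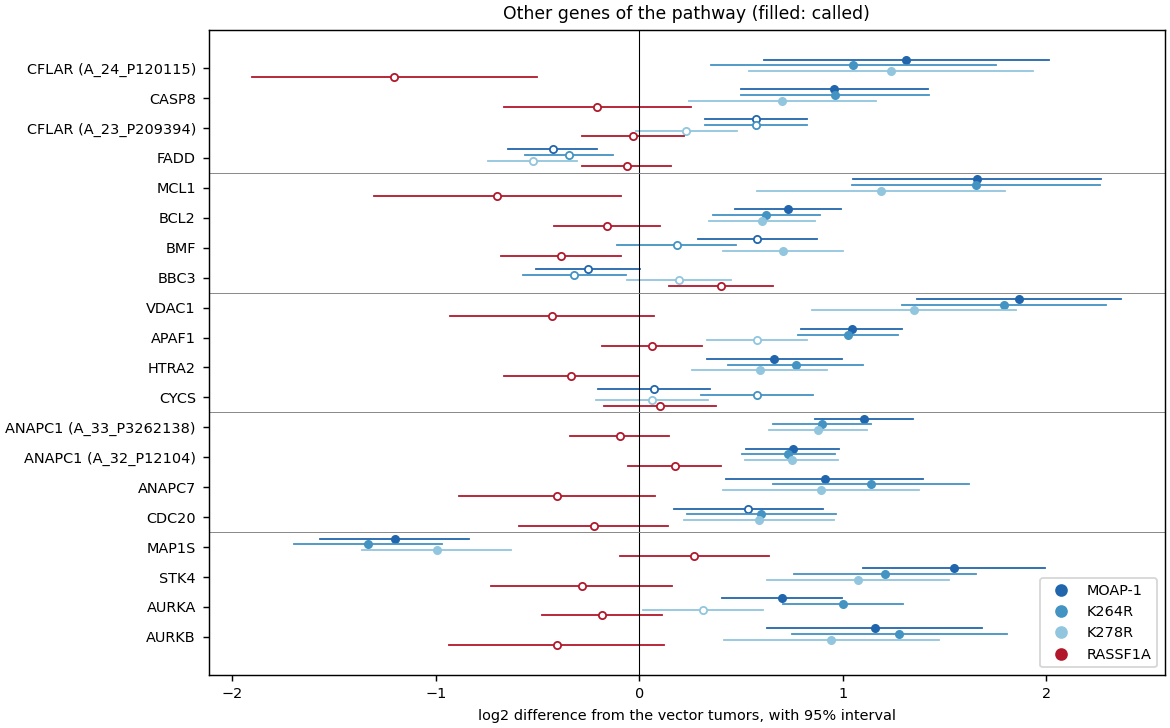
Rows are the 4 probes with the smallest F test p in each of the 5 lists, separated by lines (receptor side, guardians and BH3-only genes, events after BAX, MOAP-1 turnover, RASSF1A partners). Points are log2 differences from the vector tumors with 95% intervals. The 3 blue constructs lie together, to the right for VDAC1, MCL1 and STK4 and to the left for MAP1S. RASSF1A has no filled point, and 0% of all probes were called for RASSF1A against vector.

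The named genes whose pattern over the 15 arrays was most like MOAP1 were RBM15 (Pearson's r 0.988), ACTR3B (0.988), PLCG1 (0.988), NOL6 (0.983) and MINK1 (0.979). Among the 12 probes the closest to MOAP1 were BCL2L1 (r 0.90), BAK1 (0.89) and the first BAX probe (0.83). For RASSF1 the closest genes were TPTE (0.895), CHD2 (0.874) and LOC143666 (0.874). These coefficients are descriptions over arrays that fall into sets by construct and slide, and carry no p.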

How the data were processed

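RNA of 15 HCT116 xenograft tumors, 3 for each of 5 constructs taken from the labels, was measured on one-color Agilent arrays. For each spot the authors deposited an intensity from Agilent Feature Extraction (version 9.1 in the submitters' processing notes, 10.5.1.1 per the file headers), background-corrected and not normalized between arrays. They also deposited log2 values normalized in GeneSpring, used here only as an alternative because 7 of its 15 columns follow another array of the same construct.

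Processed intensities of 43118 spots were log2-transformed after outlier spots were left out, set to the 75th percentile of each array and averaged to 34127 probes. Symbols came from RefSeq (GRCh38.p14) for 74.5% of them. The 30585 probes well above background in all 3 tumors of a construct entered one linear model in limma 3.58.1 (R 4.3.3; lmFit, eBayes, construct as the only term, 10 residual degrees of freedom), with Benjamini-Hochberg adjustment over all of them, and the code was tested on simulated data. No spot was saturated, and the number of arrays limits the precision. All probes of the 9 genes are named, with the 4 smallest F test p of each further list and the 5 probes most like MOAP1 and RASSF1, of which 3 are printed for RASSF1. A gene of the turnover list is not reported here. Members and lists were chosen with earlier results of these data known. Alternatives covered normalization, background, filters, weights, slide, scan day, replicate number, probes, samples in the fit, the methods' t-test and each tumor left out. The normexp background used the median spot signal.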

Additional observations from a re-analysis of the deposited data

Results flagged for a closer look

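The effects of MOAP-1 and of RASSF1A against the same vector tumors differed in 4 of the 12 probes (21.2% of all probes), by the direct comparison of the MOAP-1 and RASSF1A tumors (limma, log2 scale). MOAP1 was higher with MOAP-1 by 0.99 (adjusted p = 0.000191), BAK1 by 1.03 (adjusted p = 0.0014) and BCL2L1 by 0.67 (adjusted p = 0.000912). TRIM39 (A_33_P3306217) was lower, with a difference of -0.78 (adjusted p = 0.0151). MOAP1, BAK1 and BCL2L1 were higher in 3 of 3 MOAP-1 tumors than in any RASSF1A tumor, and TRIM39 was lower in 3 of 3. No slide held both constructs. With the scan day as a block MOAP1 alone of the 4 was called, and the adjusted p was 0.0813 for BCL2L1, 0.108 for BAK1 and 0.325 for TRIM39.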

How the results depend on the processing

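MOAP1, BAK1, BCL2L1 and the first BAX probe kept their higher sign against vector in MOAP-1, K264R and K278R tumors under every alternative run, and no called difference reversed. Of 281 single differences recomputed, 239 kept their side of the threshold, and 42 lost their call. A difference that was not called could still change sign. For RASSF1 between RASSF1A and vector it was -0.12 in the main fit and 0.09 under normexp. Of 168 recomputed counts of called probes, 157 were within 1.5 times the main count or were 0 like it. The main count was 0 for RASSF1A against vector, MOAP-1 against K264R and MOAP-1 against K278R. In those comparisons almost no probe of the whole array was called. Of the 12 probes, the number called over the 5 constructs was 8 with the slide as a random block and 5 to 7 with a tumor left out. For MOAP-1 against vector it was 1 under normexp, 0 by the methods' t-test after adjustment, and 1 to 4 with a tumor left out, the lowest without vector tumor 2. For K264R against vector it was 0 under normexp and 1 to 4 with a tumor left out, the lowest again without vector tumor 2. For K278R against vector it was 0 under normexp and 0 by the adjusted t-test of the methods. Array weights gave 1 (TRIM39) for MOAP-1 against K264R. MOAP-1 against RASSF1A gave 1 with the scan day as a block and 2 by the adjusted t-test. By that test the MOAP1 difference of 0.86 between MOAP-1 and vector had an adjusted p of 0.051. Normexp shifted the median of all probes by -0.55 for MOAP-1, -0.26 for K264R, -0.53 for K278R and -0.54 for RASSF1A against vector. Under normexp MOAP1 was 0.68 higher with MOAP-1 than with vector. Relative to the normexp median of -0.53 for that comparison it was 1.20 higher. RASSF1 (0.86), TNFRSF1A (0.75), TNFRSF10B (0.67) and the second BAX probe (0.61) also lay above that median. Of the 12 probes only TRIM39 probe A_33_P3306217 lay below it (-0.03). Vector tumors 2 and 3 and K264R tumor 2 each had 6 spots of extreme local background, and with such spots left out of the normexp fit the counts were 3, 3 and 2 for MOAP-1, K264R and K278R against vector. Among all probes called for MOAP-1 against vector, 3033 were higher and 2046 lower, but 2306 and 2423 after quantile normalization; for K278R 2359 and 978 became 1368 and 1297. The deviations of same-numbered tumors of different constructs correlated between -0.25 and 0.37 (mean 0.07). Those of differently numbered tumors correlated between -0.47 and 0.45 (mean -0.04). Deviations from the mean of 3 tumors depend on each other, so these ranges do not settle whether tumor numbers pair the samples. With the replicate block the BAK1 difference of 0.61 between K278R and vector lost its call (adjusted p = 0.053), which it also did under quantile normalization, array weights and the fit of only those arrays. The cause of these changes was not tested.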
